A study of Mus musculus with 6 samples.

Results

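The genotype difference shared by the 2 activated states of regulatory T (Treg) cells was read from 4 of the 6 libraries of the study. These were the stimulated nTreg cells and the iTreg cells of each genotype, with the cell state as a covariate, and the resting pair served only for comparison. Within these libraries the genes described are those that moved the same way in both pairs and those that moved opposite ways, among 9793 genes with at least 50 counts in the higher library of each pair. All mice were C57BL/6, 8 weeks old and carried Foxp3Cre, a Cre recombinase driven from the Foxp3 gene. Wild type means MondoA+/+Foxp3Cre, and knockout means MondoAfl/flFoxp3Cre, in which the floxed MondoA gene, Mlxip, is deleted in cells that have turned on Foxp3. The stimulated cells were nTreg cells, sorted as CD4+CD25hiYFP+ from spleens and lymph nodes and then activated for 48 h on plate-bound anti-CD3 with anti-CD28 and IL-2. The iTreg cells were grown from sorted naive CD4+YFP-CD44loCD62Lhi cells in 4 days of iTreg polarization. They were YFP-negative when sorted, and Foxp3Cre is active only where Foxp3 is on. The resting cells were the sorted nTreg cells without culture. Each group had 1 library, and the labels do not say how many animals or cultures gave one.

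MondoA is a transcription factor that binds DNA together with its partner MLX at paired E-box sequences, and it is activated when glucose 6-phosphate builds up in the cell. Its best known targets are Txnip and Arrdc4, which encode related arrestin-like proteins. TXNIP drives glucose transporters off the cell surface and binds thioredoxin, so MondoA activity acts as a brake on glucose uptake. Treg cells restrain other T cells, are defined by Foxp3, and take up more glucose when their antigen receptor is triggered.

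Total expected counts were 9760285 to 10185664 per library, and the 10 most abundant genes took 4.33 to 5.51% of them. Foxp3 lay at 507 and 527 normalised counts scaled to a library total of 1e+06 (CPM) in wild-type and knockout stimulated cells and at 492 and 482 CPM in iTreg cells, so the cells of both genotypes carried the defining Treg transcript. Xist had 3 to 11 counts in the 4 activated libraries and 5247 and 7132 in the resting ones, while Kdm5d, Ddx3y, Uty and Eif2s3y had 152 to 1128 counts each in the activated and 0 in the resting libraries. By these genes the resting and the activated libraries came from animals of different sex, so resting and activated values differ in more than the culture. In the iTreg pair the fold also followed transcript length. The median log2 fold, always knockout over wild type, ran from 0.51 in the shortest of 10 equal bins of genes (median length 900 bases) to -0.58 in the longest (7507 bases), against 0.08 to -0.01 in the stimulated pair.

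For Mlxip, the targeted gene, the wild-type and knockout levels were 152 and 87.1 CPM in stimulated and 167 and 70.7 CPM in iTreg cells. Both knockout libraries were below both wild-type ones. In the model of the 4 libraries, the edgeR quasi-likelihood test with Benjamini-Hochberg adjustment over all 12232 genes tested, Mlxip fell by a log2 fold of -1.04 (SE 0.248, adjusted p = 0.0032). With the length trend removed its iTreg fold went from -1.24 to -0.73 and its shared fold was -0.78 (adjusted p = 0.0311, edgeR). DESeq2 gave an adjusted p of 0.0496, and edgeR with the resting pair added gave 0.239. The resting pair had 1431 and 1130 Mlxip counts, a log2 fold of -0.40. The labels do not say which exons are floxed, so reads outside the deleted part may remain in these counts.

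The 250 bases upstream of the start of Txnip and of Arrdc4 are shown because these genes are the best known MondoA targets and were among the largest decreases. The sequences are from RefSeq on GRCm38.p6, at chr3:96557707-96557956 on the plus strand and chr7:68749239-68749488 on the minus strand, each printed 5′ to 3′ on the gene's own strand. Capitals mark the paired E-box of Txnip and the single CACGTG of Arrdc4.
Txnip: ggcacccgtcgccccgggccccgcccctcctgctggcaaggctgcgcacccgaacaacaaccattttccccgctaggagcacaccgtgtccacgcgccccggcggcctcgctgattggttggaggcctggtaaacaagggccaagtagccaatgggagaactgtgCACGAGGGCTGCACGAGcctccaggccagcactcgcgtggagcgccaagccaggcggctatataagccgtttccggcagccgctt
Arrdc4: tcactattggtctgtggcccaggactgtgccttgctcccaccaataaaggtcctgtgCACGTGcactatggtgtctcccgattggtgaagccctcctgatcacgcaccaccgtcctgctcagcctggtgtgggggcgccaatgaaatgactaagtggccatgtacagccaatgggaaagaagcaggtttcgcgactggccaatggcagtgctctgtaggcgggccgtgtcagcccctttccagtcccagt
The Txnip pair, 2 copies of CACGNG with 5 bases between, began 85 bases before the start, and this pattern was searched only after the sequence had been read. Of the 7934 promoters available for the 9793 genes, 7 held it (0.0882%) on either strand. Among the genes that moved the same way by 2-fold in both pairs, described next, Txnip alone did, of 37 with a promoter. The Arrdc4 CACGTG began 193 bases before the start. That palindrome stood in 1 of 21 promoters of shared decreases (4.76%), Arrdc4, in 1 of 16 promoters of shared increases (6.25%), AA465934, and in 835 of 7934 promoters overall (10.5%). A match describes these letters in this window and no more.

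The Txnip levels of wild-type and knockout cells were 141 and 24.3 CPM after stimulation and 303 and 72.7 CPM in iTreg cells. Its log2 folds were -2.53 (95% interval -2.74 to -2.34) and -2.06 (-2.18 to -1.94), and the shared fold was -2.31 (SE 0.26, adjusted p = 5.3e-16, edgeR). Intervals beside the fold of a single pair are exact conditional intervals of the ratio and cover counting error only. Arrdc4 had 103 and 5 counts in stimulated and 388 and 25 in iTreg cells, wild type first. It differed by -3.89 (-5.99 to -3.07) and -3.85 (-4.60 to -3.37), almost the same size in both states although its wild-type level was 10.4 CPM in one and 39.6 CPM in the other. The shared fold of Arrdc4 was -4.07 (SE 0.375, adjusted p = 3.8e-24). In both genes the knockout libraries lay under both wild-type libraries.

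Across the 9793 genes, 5741 (58.6%) had folds of the same sign in both pairs, with 3377 up and 2364 down in the knockout, while the other 4052 (41.4%) had opposite signs. Most of these folds were small. When the 95% counting intervals of both ratios had to exclude 1, 1062 genes were higher in both, 590 lower in both, 478 higher in stimulated and lower in iTreg cells, and 260 the reverse. The folds of the pairs correlated across genes with a Pearson r of 0.405, and with 0.190 without the genes that moved by 2-fold in both. The genes share 4 libraries, so r is a description.

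At a difference of at least 2-fold in each pair, 28 genes were higher in both, 29 lower in both, and 1 went opposite ways. In the stimulated pair alone 0.511% of the 9793 genes were 2-fold higher and 0.398% lower, in the iTreg pair 2.00% and 5.05%. The 57 same-way genes made up 0.286% (higher) and 0.296% (lower) of the genes, and the opposite-way gene 0.0102%. The 28 increases were 56% of the 50 stimulated increases and 14.3% of the 196 iTreg increases. The 29 decreases were 74.4% of the 39 stimulated and 5.86% of the 495 iTreg decreases. More than 50% of the 2-fold differences of stimulated cells were thus 2-fold the same way in iTreg cells, more often for decreases than for increases. Most of the 2-fold differences of iTreg cells were not 2-fold in stimulated cells. These counts include the copies and overlapping genes described below. Genes just inside the limit had a smaller fold of 1.05 (Memo1), 1.11 (Emilin2) and 1.16 (Spp1) on the log2 scale, and those just outside 0.95 (Serpine2), 0.94 (Xcl1) and 0.92 (Sema7a).

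**Figure D1:**
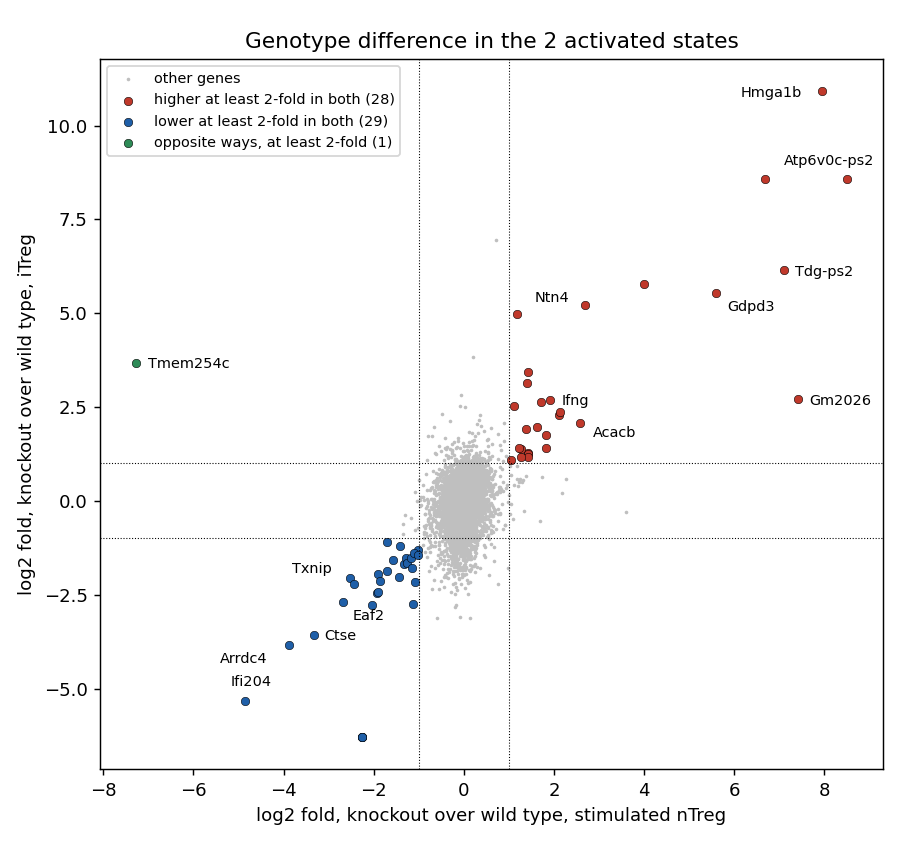
Each point is 1 of 9793 genes, with the log2 fold of knockout over wild type in stimulated nTreg cells on the horizontal axis and in iTreg cells on the vertical axis, and dotted lines at 2-fold. The 28 shared increases lie upper right, the 29 shared decreases lower left (Gm4724, Gm14434 and Gm14308 fall on 1 point), and Tmem254c alone stands upper left.

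The model of the 4 libraries called 226 of 12232 genes (1.85%), 93 higher (0.760%) and 133 lower (1.09%). All 57 same-way genes were among them, but the same libraries chose them, so their adjusted p-values add nothing independent to the choice. A called gene was not always moved in both states. Of the 226, 186 had the larger fold in the iTreg pair, 87 were under 1.5-fold in the stimulated pair against 6 in the iTreg pair, 11 had opposite signs in the pairs, and 132 were at least 1.5-fold the same way in both. With 1 residual degree of freedom the count depended on the method. DESeq2 called 43, all among the 226, and edgeR with the length trend removed called 92, 83 of them among the 226. Of the 57, DESeq2 called 18 increases and 15 decreases, and among genes named here it did not call Acacb, Atp6v0c-ps2, Xaf1, Emilin2, Memo1, AA465934, Gm2026, Apobr, Cep83os, Trim5, Trim30d, Zfp40, Zfp52, Idua, Gm6548, A930015D03Rik, Gm4724, Gm14434 or Gm14308. With the resting pair added 11 increases and 6 decreases passed, and without the cell state covariate 0 did.

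Among the decreases, Ifi204, an interferon-inducible sensor of DNA, had 56 and 0 counts in stimulated and 117 and 1 counts in iTreg cells, wild type first. It was at least 18.4-fold lower in stimulated knockout cells against a floor of 3 counts per library. In the resting pair, where it had 383 and 179 counts, the log2 fold was only -1.15. Trim12a, a mouse relative of the antiviral restriction factor TRIM5, stood at 24 and 6.23 CPM in stimulated and at 42.4 and 10.8 CPM in iTreg cells, with log2 folds of -1.91 (-2.38 to -1.54) and -1.96 (-2.30 to -1.67). Its shared fold was -1.98 (SE 0.289, adjusted p = 2.7e-09, edgeR). Its neighbours Trim5 and Trim30d were lower as well (shared folds -1.63 and -1.51), and so was Gvin1, a very large interferon-inducible GTPase that lies near them (-1.96). These 3 lay outside the naming rule and were chosen after seeing their values. The Trim and Gvin families hold close paralogs among which reads may be split.

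Ctse, the endosomal aspartic protease cathepsin E, had wild-type and knockout levels of 110 and 10.7 CPM in stimulated and of 67.6 and 5.53 CPM in iTreg cells. Every knockout value was under every wild-type value, with log2 folds of -3.33 (-3.66 to -3.06) and -3.56 (-4.04 to -3.21) and a shared fold of -3.49 (SE 0.299, adjusted p = 4.84e-28). Apobr, the receptor that takes up apolipoprotein B48 on triglyceride-rich particles, had a shared fold of -1.79, but its exons overlap the more abundant Cln3 on the other strand, and the strandedness of the libraries is not known.

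Further decreases had diverse roles. Eaf2, which associates with the ELL elongation factors of RNA polymerase II, had 167 and 24 counts in stimulated and 179 and 26 counts in iTreg cells, an equal loss in both states (log2 folds -2.68 and -2.69, shared -2.79, SE 0.349, adjusted p = 8.88e-13). In resting cells it had 84 and 95 counts, so its decrease was not seen there. Ddr1, a receptor tyrosine kinase for collagen, went from 17.3 to 4.39 CPM in stimulated and from 63 to 11.3 CPM in iTreg cells (shared -2.27, SE 0.297). Unc5cl, a death-domain protein related to netrin receptors, had log2 folds of -1.86 and -2.15. Rtl1, an imprinted gene derived from a retrotransposon, had -2.43 and -2.22, and the zinc finger gene Zfp948 -1.57 in both pairs. Cep83os, an RNA annotated opposite Cep83, was the weakest decrease named by the rule, at -1.33 and -1.67 (adjusted p = 0.00458), and it did not pass with the length trend removed. Over all 29 decreases the shared fold ran from -7.13 to -1.19 with a median of -1.96, and the fold was larger in the iTreg pair in 23 of them.

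Gdpd3, which encodes a lysophospholipase D that makes lysophosphatidic acid, was nearly absent from the wild-type libraries. Wild-type and knockout stimulated cells had 4 and 285 counts, and the other pairs 9 and 509 (iTreg) and 9 and 1739 (resting). The log2 folds were 5.60 (4.81 to 8.06) and 5.55 (4.89 to 6.96), and the shared fold was 5.91 (SE 0.395, adjusted p = 8.45e-47). Acacb, the acetyl-CoA carboxylase of mitochondria whose product holds back fatty acid oxidation, had 10 and 69 counts in stimulated, 11 and 53 in iTreg and 15 and 100 in resting cells. Its knockout level was thus higher by a like factor in each state, with shared fold 2.51 (SE 0.449, adjusted p = 5.86e-06). Glo1, the glyoxalase that removes methylglyoxal formed by glycolysis, rose from 58 to 151 CPM in stimulated and from 50.6 to 193 CPM in iTreg cells (shared 1.64, SE 0.252, adjusted p = 3.52e-08). Prelid2, of a family of mitochondrial lipid transfer proteins, had 1.43 and 3.44.

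Ifng, the type 1 cytokine interferon-gamma, had 111 and 419 counts in stimulated and 91 and 596 counts in iTreg cells. Both knockout libraries lay above both wild-type ones, with log2 folds of 1.92 (1.63 to 2.26) and 2.69 (2.40 to 3.05) and a shared fold of 2.31 (SE 0.29, adjusted p = 1.32e-12). Ccl3, a chemokine released by activated effector T cells, went from 461 to 1069 counts and from 298 to 785 counts (shared 1.30, SE 0.259, adjusted p = 0.000102). Xaf1, an interferon-inducible inhibitor of the apoptosis blocker XIAP, went from 106 to 255 and from 178 to 465 counts (shared 1.32, adjusted p = 0.000341). H2-T10, a non-classical MHC class I gene with close paralogs, stood at 38.6 and 104 CPM in stimulated and at 61.1 and 149 CPM in iTreg cells (shared 1.34, adjusted p = 2.48e-05).

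Ntn4, a secreted netrin, went from 17 to 119 counts in stimulated and from 5 to 256 counts in iTreg cells, whereas in resting cells it had 171 and 116 counts, so the direction there was the other one. Kcnab3, a regulatory subunit of potassium channels, had log2 folds of 1.72 and 2.63. Fbxo17, a subunit of a ubiquitin ligase, had 1.82 and 1.74. Trim16 had 82 and 215 counts in stimulated and 29 and 269 in iTreg cells. The shared folds of all 28 increases ran from 1.06 to 12.50 with a median of 2.24, and the fold was larger in the iTreg pair in 18 of them.

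**Figure D2:**
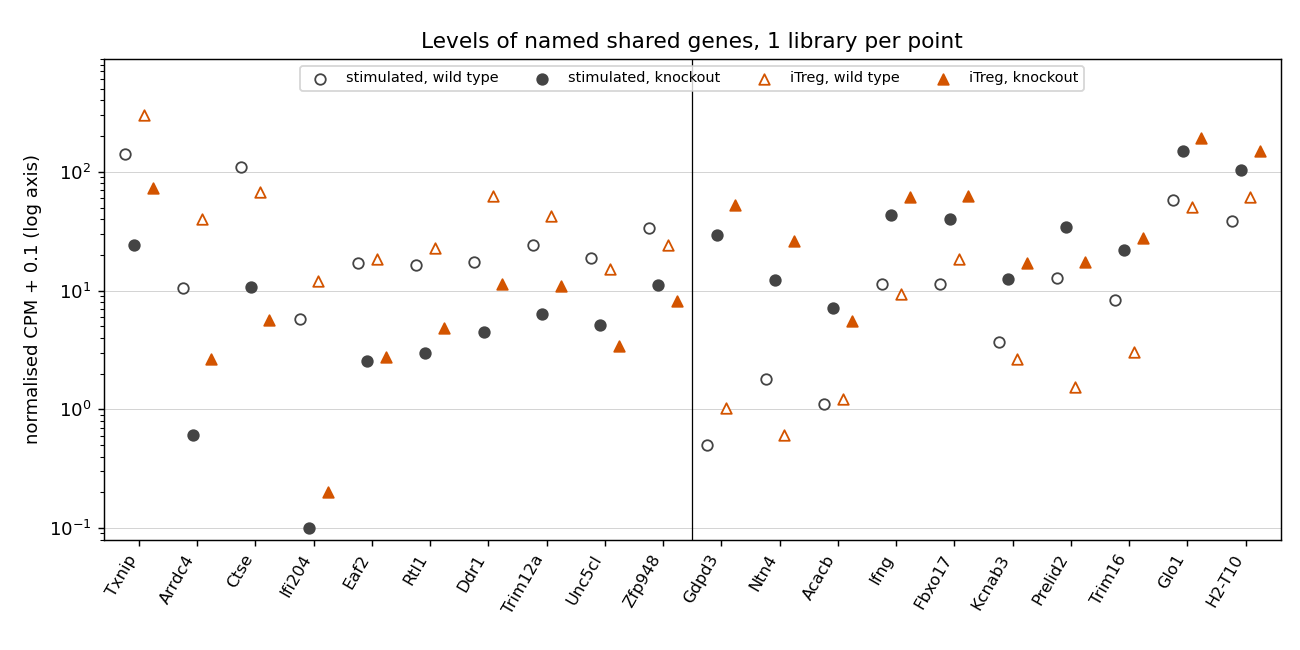
Normalised CPM plus 0.1 on a log axis for 20 named shared genes, with decreases left and increases right of the line; circles are stimulated nTreg and triangles iTreg libraries, open for wild type and filled for knockout, 1 library per point. For each gene the knockout point lies on the same side of the wild-type point in both states, which is how the genes were chosen. Ifi204 in knockout stimulated cells is drawn at 0.1 because it had 0 counts.

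Some of the largest folds concerned genes with near-identical copies, and there the sum of the copies moved much less than the copies past 2-fold. Hmga1b, a copy of the chromatin protein gene Hmga1, had 10 and 2923 counts in stimulated and 0 and 3773 in iTreg cells, again with wild type first, while Hmga1 itself went from 3087 to 931 and from 4195 to 1142. Hmga1b thus counts as a shared increase and Hmga1 as a shared decrease, but together they had 3097 and 3854 counts in stimulated and 4195 and 4915 in iTreg cells (log2 folds 0.34 and 0.23). Atp6v0c-ps2, a pseudogene of the proton pump subunit Atp6v0c, had 0 counts in both wild-type libraries and 711 and 743 in the knockout ones. The sum with Atp6v0c was 1372 and 1348 counts in stimulated and 1197 and 1438 in iTreg cells. Tdg-ps2, a pseudogene of the thymine DNA glycosylase Tdg, had 4 counts in each wild-type library and 814 and 420 in the knockout ones, and its sum with Tdg moved by log2 folds of 0.27 and -0.29.

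Rnaset2b, 1 of 2 copies of a lysosomal ribonuclease, was lower in both pairs (log2 folds -2.04 and -2.77), and its sum with Rnaset2a moved by -0.39 and 0.32. The predicted zinc finger models Gm4724, Gm14434 and Gm14308 had the same counts as each other in every library, 164 and 32 in stimulated and 151 and 0 in iTreg cells, so they are 3 entries for 1 measurement. Gm2026 went the other way, with 0 and 333 counts in stimulated and 70 and 467 in iTreg cells. The 4 models together differed by -0.17 and -0.16, but that sum counts the 1 measurement 3 times. Counted once, the knockout sum would be the higher one in both pairs. Without these copies and without genes that overlap a more abundant gene, 21 increases and 21 decreases remained of 28 and 29, a selection made after the data were seen. The remainder still held genes with close paralogs, such as H2-T10, Trim12a and Gvin1. It also held the predicted model Gm5779, with 0 and 741 iTreg counts. The part of read assignment in the copy folds was not tested.

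**Figure D3:**
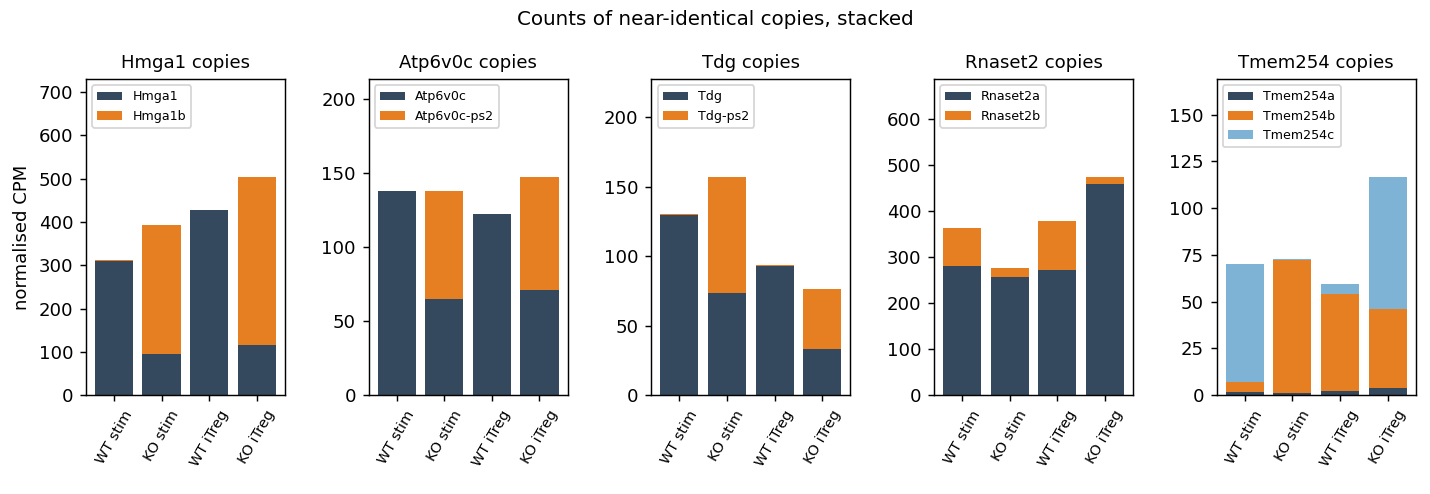
Stacked bars of normalised CPM for 5 families of near-identical copies, with wild-type (WT) and knockout (KO) libraries of stimulated nTreg (stim) and iTreg cells on the horizontal axis, 1 library per bar. Orange Hmga1b, Atp6v0c-ps2 and Tdg-ps2 appear in the knockout bars while the dark parent gene shrinks, and Tmem254b and Tmem254c trade places between libraries.

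The single gene that moved at least 2-fold opposite ways was of this kind. Tmem254c, 1 of 3 copies of a small membrane protein gene, had 625 and 2 counts in stimulated but 52 and 686 in iTreg cells. The log2 folds were -7.28 (-11.31 to -6.41) and 3.68 (3.32 to 4.16). Tmem254b ran against it, with 57 and 699 counts in stimulated and 509 and 416 in iTreg cells. The 3 copies together had 697 and 710 counts in stimulated cells, a log2 fold of 0.05, and 582 and 1138 in iTreg cells, a fold of 0.97. No gene was 2-fold higher in stimulated and 2-fold lower in iTreg cells.

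At 1.5-fold in each pair, 56 genes were higher in both, 76 lower in both, 15 higher in stimulated and lower in iTreg cells, and 11 the reverse. The genes named here from the opposite ways were chosen after seeing their values. Slc1a4, a transporter of neutral amino acids, had 37 and 74 counts in stimulated and 279 and 79 in iTreg cells, and Atf5, a stress transcription factor, 136 and 213 against 995 and 324. In the other direction, Id3, an inhibitor of E proteins, had 232 and 129 counts in stimulated and 165 and 355 in iTreg cells, Lgals3, the lectin galectin-3, 412 and 248 against 465 and 1542, and the water and glycerol channel Aqp3 66 and 40 against 552 and 2152. For these 5 the wild-type and knockout ranges over the states overlapped, which the opposite signs make certain. The difference of the genotype effect between the states was not tested, since 4 libraries leave it no residual degree of freedom.

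The resting pair had no part in choosing the 57 genes. Of the 28 increases 22 had at least 50 counts there, of which 10 were 2-fold higher in knockout cells, against 0.596% of the 9394 genes with enough counts, and 1, Ly6c1, was 2-fold lower. Of the 29 decreases 26 had enough counts, of which 8 were 2-fold lower, against 1.06% of the genes, and 1, Gm6548, was 2-fold higher. The limit of 50 counts applied to the higher library, here and for all genes. Among the 10 increases only Gm2026 (134 and 359 counts) also reached it in wild-type cells. The others passed only through the knockout library, such as Gdpd3 (9 and 1739) and Acacb (15 and 100), so the 10 of 22 follows partly from the limit. Among the 8 decreases Arrdc4 (159 and 27) passed only through the wild-type library. Of any size, 19 of the 22 and 18 of the 26 lay on the side of the activated pairs, with median log2 folds of 0.71 and -0.62. The increases that were 2-fold in all pairs were Gdpd3, Acacb, Trim16, Prelid2, AA465934, Gm5779, a gene without a symbol, and the copies Hmga1b, Atp6v0c-ps2 and Gm2026, and the decreases were Txnip, Arrdc4, Ctse, Ifi204, Trim12a, Trim30d, Gvin1 and Gm15441. Gm15441 is annotated antisense to Txnip, and without known strandedness its counts may include Txnip reads. Ifng, Glo1, Fbxo17, H2-T10 and Ddr1 lay on the same side at 0.66, 0.75, 0.55, 0.60 and -0.60 without reaching 2-fold. Other increases lay on the opposite side there with few counts, Ccl3 at -0.78 (44 and 26 counts) and Emilin2 at -0.52 (38 and 27 counts).

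**Figure D4:**
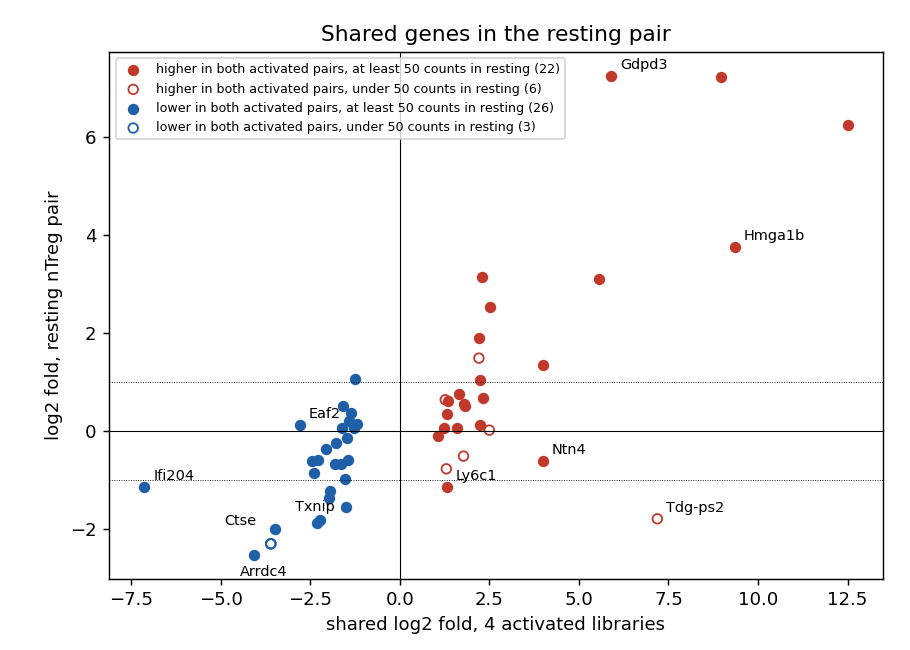
Shared log2 fold of the 57 genes in the 4 activated libraries (horizontal axis) against their log2 fold in the resting nTreg pair (vertical axis), with open symbols for genes with under 50 counts in the resting libraries and dotted lines at 2-fold. Most points lie lower left or upper right. On the right Ntn4, Ly6c1, Tdg-ps2, Ccl3, Emilin2 and Memo1 are below 0. On the left 8 decreases are above 0, with Gm6548 the furthest and Eaf2 near 0.

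Position was looked at next. Of the 56 with a place in the RefSeq gene order, 13 (23.2%) lay on the chromosome that carries H2-T10, against 5.39% of the 9793 genes, and 10 (17.9%) on that of Trim12a, against 7.49%. These chromosomes were chosen after seeing the counts. The stretches of at least 3 shared genes within 250 gene positions of each other, copies aside, were of unequal density. The denser ones were Trim5, Trim12a, Trim30d and Gvin1, which are 4 of the 20 measured genes in their stretch and all lower, Zfp52, Zfp948 and Zfp40, 3 of 12 and all lower, and Ddr1, A930015D03Rik and H2-T10, 3 of 21 in the MHC region with 1 lower and 2 higher. Of these, A930015D03Rik overlaps exons of the more abundant H2-T22 on the other strand, and the strandedness is not known. Another 4 stretches held 3 of 25 to 3 of 80 measured genes, and how many such stretches scattered genes would form was not tested. None of the 57 lay within 250 positions of Mlxip, where 1.78% of the genes did. Counted in measured genes only, Acacb, Spp1, 4933404O12Rik and Idua did, which is 7.02% against 4.69%. The length of the genes differed as well, with a median of 1609 bases for the increases, 3164 for the decreases and 2880 for all 9793. What part position and length have in these differences was not tested.

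The pathways around MondoA were described from 40 lists, each read against the median shared fold of 0.01 over all genes. Of all 12232 genes tested, 4049 were higher in both pairs and 3047 lower in both. Past the test 93 rose (0.760%) and 133 fell (1.09%), and the list counts below stand beside these shares. Glycolysis had 22 members tested, none past the test, with a median shared fold of 0.28 and 14 members higher in both pairs. Gapdh lay at 0.38 in stimulated and 0.79 in iTreg cells, and the glucose transporter Slc2a1 at 0.20 and 0.28 (shared 0.22, SE 0.245, adjusted p = 0.857). The glucose transporter Slc2a3 had 432 and 469 counts in stimulated but 284 and 114 in iTreg cells, with log2 folds of 0.14 and -1.30 (adjusted p = 0.486). Oxidative phosphorylation had 0 of 26 past the test and 21 higher in both, with medians of 0.11 in stimulated and 0.63 in iTreg cells. The iTreg median was 0.20 with the length trend removed. Of 15 lipid synthesis genes Scd1, the stearoyl-CoA desaturase, rose (shared 1.07, SE 0.293, adjusted p = 0.0203), mostly in stimulated cells (2.18 against 0.22). Its paralog Scd2 went 1.70 and -0.54.

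Of the 10 MLX network genes tested, Mlxip itself was the single decrease and none rose. The Treg programme had 0 of 25 past the test and a median of -0.03. Of the Th1 programme 3 of 15 rose, Ifng, Ccl3 and Ccl4, and of 9 cytotoxic genes 3, Gzma, Nkg7 and Ctsw. Gzma had 2 and 3 counts in stimulated and 11 and 144 in iTreg cells, so its increase rests on the iTreg pair. Of 8 chemokine ligands Ccl1, Ccl3, Ccl4 and Xcl1 rose and Ccl22 fell, the last with 68 and 12 counts in stimulated and 22 and 5 in iTreg cells. The median of the chemokine list in iTreg cells turned from 0.44 to -0.06 with the length trend removed. Among markers of CD8 and NK cells 0 of 4 tested members passed, with adjusted p from 0.232 (Klrd1) to 0.713 (Cd8b1), edgeR. Their values lay on the higher side in both pairs, with a summed level of 55.2 and 67.5 CPM in stimulated and of 124 and 226 CPM in iTreg cells, Cd8a at 552 and 1059 iTreg counts, Cd8b1 at a log2 fold of only 0.04 in stimulated cells, and the defining NK receptor Ncr1 at 0 or 1 count. The part of these cells in the higher effector genes was not tested.

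Metallothioneins Mt1 and Mt2 passed the test as increases, with Mt1 at 78 and 127 counts in stimulated and 4 and 740 in iTreg cells, so almost all of the shared fold of 3.17 came from the iTreg pair. The T cell receptor response list had 3 of 22 lower, Egr3, Rel and Nr4a2, with list medians of 0.04 in stimulated and -0.58 in iTreg cells. These 3 too moved mainly in iTreg cells, Egr3 for example by -0.24 in stimulated and -1.96 in iTreg cells. Of 17 ATF4 targets Asns and Slc7a3 fell, with list medians of 0.15 and -1.17 and 11 members of opposite sign. Slc7a3, an amino acid transporter, had 16 and 20 counts in stimulated and 108 and 10 in iTreg cells, so its sign differed between the pairs. Interferon-stimulated genes had 1 of 25 higher, Xaf1, and 1 lower, Oasl2, which had 36 and 1 counts in stimulated and 85 and 5 in iTreg cells and so missed the limit of 50 counts. Of 20 interferon-inducible GTPases and DNA sensors Ifi204, Gbp9 and Gbp7 fell and none rose. The folds of Gbp9 and Gbp7 were -0.22 and -0.29 in stimulated against -1.75 and -1.51 in iTreg cells, so their calls rest on the iTreg pair.

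B cell markers were higher in both pairs in 8 of 8 members, with Cd79a past the test (shared 1.28, SE 0.329, adjusted p = 0.00984). Their summed level was 48 and 63.4 CPM in stimulated and 25.4 and 67.8 CPM in iTreg cells. The 5 MHC class II genes were also higher in both, with H2-Eb1 past the test (1.09, SE 0.3, adjusted p = 0.0203). In bulk RNA more cells of a type and more RNA per cell cannot be told apart. Of the 28 list members past the test, 11 passed with the length trend removed, and Cd79a, H2-Eb1, Scd1, Ccl1, Ccl4, Xcl1, Nkg7, Ctsw, Mt1, Mt2, Asns, Slc7a3, Egr3, Rel, Nr4a2, Gbp7 and Gbp9 did not. Several of the lost folds were as large or larger with the trend removed, among them Asns (-1.35 to -1.49), Slc7a3 (-1.67 to -1.78), Rel (-1.02 to -1.08) and Scd1 (1.07 to 1.18), and others were smaller, such as Xcl1 (1.03 to 0.62) and Nkg7 (0.88 to 0.58). What part length has in a lost call was not tested. Of the 28, DESeq2 called 7, Txnip, Arrdc4, Mlxip, Ifi204, Oasl2, Ifng and Ccl3.

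**Figure D5:**
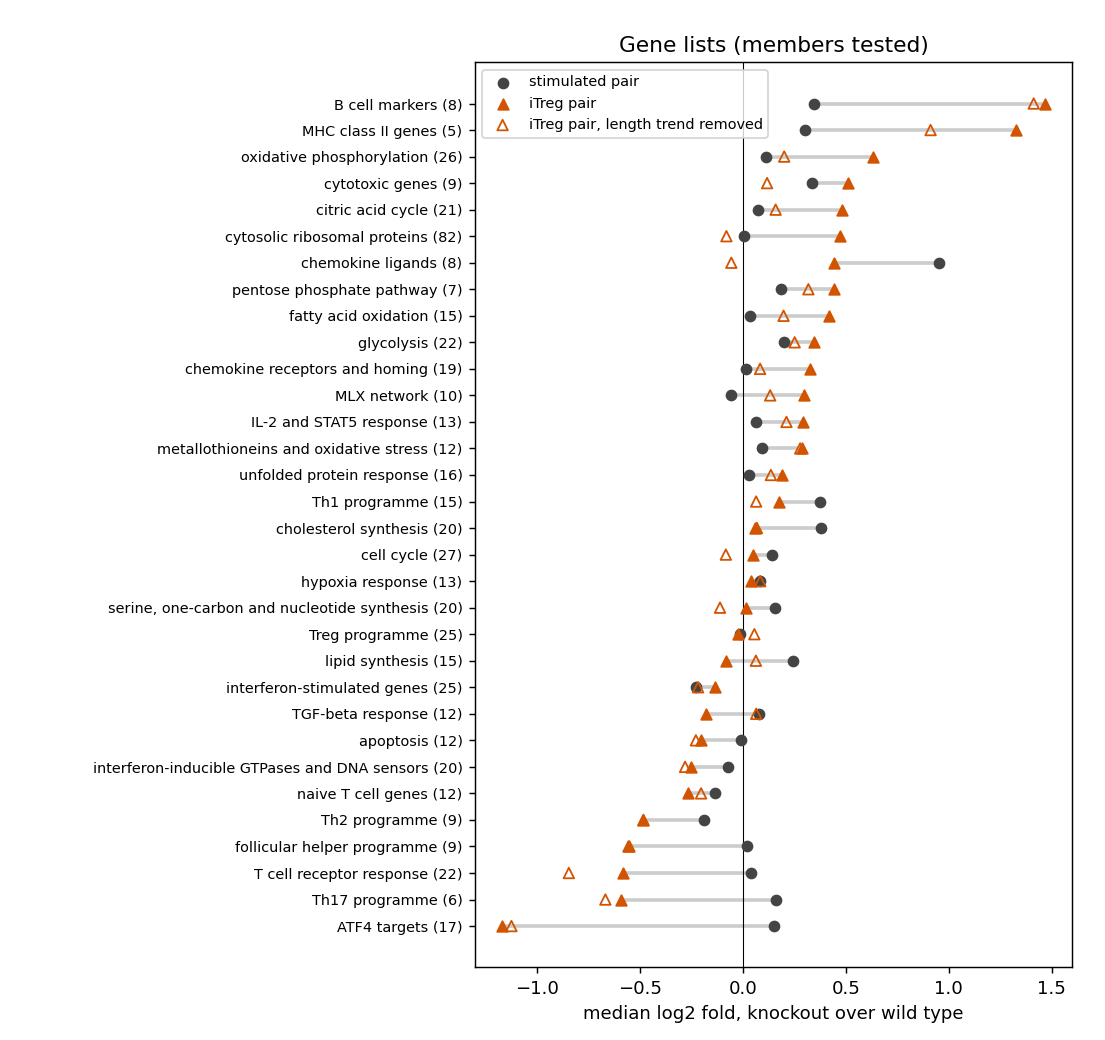
Median log2 fold of knockout over wild type for each gene list with at least 5 members tested, in the stimulated pair (circles), the iTreg pair (filled triangles) and the iTreg pair with the length trend removed (open triangles), the number tested in brackets. ATF4 targets lie at 0.15 in stimulated and -1.17 in iTreg cells, and B cell markers are highest in iTreg cells.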

How the data were processed

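Bulk RNA sequencing covered 6 libraries, 1 per group, with RNA extracted in Trizol, and groups were taken from the labels. The deposited expected counts are, per the file headers, estimated numbers of reads per gene, of which 76% were whole to within 0.005. They were rounded, and a gene not listed in a library was taken as 0. The deposited FPKM values, scaled by the authors to transcript length and library size, served only for alternatives, and the authors' deposited transcript length served for the length trend. Bowtie2, HISAT and mm9 are named in the submitters' processing notes. The quantifier, its annotation and the strandedness are not given in the sources used here. Of 17759 identifiers 17711 were matched to symbols with a RefSeq table on GRCm38, used otherwise only for gene order and exon overlap.

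Folds of a pair used CPM with TMM factors (0.961 to 1.06) and a prior count of 2 in edgeR 4.0.16 (R 4.3.3), with Clopper-Pearson 95% intervals, and no p-value. The shared effect was the genotype term of the edgeR quasi-likelihood test with cell state as covariate (filterByExpr with 10 counts and a total of 15, Benjamini-Hochberg threshold 0.05, 1 residual degree of freedom, common dispersion 0.0342). The test was also run on simulated counts with this dispersion, the same genotype effect in both states and no length trend. That run therefore does not cover the length trend or the state-dependent folds of these libraries. A fold that differs between the states counts as error in the test. With 1 residual degree of freedom it may change the SE of a gene little. Egr3, at -0.24 and -1.96, had an SE of 0.258, and Glo1, at 1.38 and 1.93, had 0.252. A small adjusted p therefore does not show that the states agree. The p-values measure mainly a spread pooled over genes and left between these libraries, which may be technical. The length trend was a lowess curve of span 0.3 in each pair. Alternatives used DESeq2 1.42.0 and limma 3.58.1 with log2(FPKM + 1) or log2(FPKM + 0.1), and Python 3.11.15 was used elsewhere.

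The genes, the 40 lists and the comparison were chosen with earlier results of these data known. The naming rule took Mlxip, Txnip, Arrdc4, Foxp3, Slc2a1, the 14 increases and 14 decreases with the largest smaller fold of the pairs, up to 8 opposite-way genes per direction, and up to 4 members per list. Predicted models, antigen receptor segments and sex-linked genes were left out of the ranking. A gene that the rule would name is not reported here.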

Additional observations from a re-analysis of the deposited data

How the results depend on the processing

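The count of 226 called genes stayed within 1.5 times with median-of-ratios size factors (225), no low-count filter (227), at least 50 counts in each pair (160) and log2(FPKM + 1) or log2(FPKM + 0.1) in limma (281 and 264). It was 92 with the length trend removed, 22 with the resting pair added, 43 with DESeq2 (415 at an unadjusted p under 0.05), and 0 without the cell state covariate in edgeR (116 at an unadjusted p under 0.05). The 57 same-way genes became 132 at 1.5-fold and 30 at 3-fold, 84 with at least 20 and 45 with at least 100 counts, and 56 with the length trend removed, 51 of them among the 57. The opposite-way gene became 2 with a prior count of 0.5, 5 with at least 20 counts and 26 at 1.5-fold. The cause of these shifts was not tested beyond the settings themselves.

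With copies summed, a setting chosen after seeing the data, folds changed sign in the stimulated pair for Hmga1 (0.339), Atp6v0c-ps2 (-0.00183), Tmem254c (0.0503) and Gm2026 (-0.174), and in the iTreg pair for Hmga1 (0.235), Tdg-ps2 (-0.294), Rnaset2b (0.323) and Gm2026 (-0.157). The sums given for Gm2026 repeat 1 measurement shared by the other models, and its sign changes rest on that repeat. Leaving out 1 library leaves the fold of the other pair with no test. Over these settings Slc7a3 ran from -3.2 to 0.311, reversed without either iTreg library. No paired analysis was possible because each group had 1 library and so no replicate number to block on, beyond the cell state term, which already sets knockout against wild type within each state. Depth limits genes with few counts, such as Ifi204 and Arrdc4 in knockout cells.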
